A study of Mus musculus with 2 samples.

Results

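Ribosome footprints of 43 mouse genes that encode lysosomal hydrolases, their activators and lysosomal membrane proteins were compared between a fed and a fasted ileum. The genes were chosen by name, as cathepsins, glycosidases, sulfatases, lipid hydrolases and membrane proteins, and all 43 were among the 22756 genes counted. Both libraries came from the ileum, the end of the small intestine, of C57BL/6 wild type mice aged 21 postnatal days, one made from fed animals and one from animals that had been without food for 48 h. Each condition thus had n = 1, and the number of mice behind each library is unknown here. Every difference below is one between 2 libraries with no replicate check, and intervals cover counting error only.

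Lysosomes are acidic organelles in which proteins, glycans and lipids that arrive by endocytosis or autophagy are broken down. Most of the soluble hydrolases are tagged with mannose 6-phosphate in the Golgi and carried to the lysosome by mannose 6-phosphate receptors, while heavily glycosylated membrane proteins line the organelle. In nutrient shortage the transcription factors TFEB and TFE3 can enter the nucleus and act on lysosomal genes through a palindromic E-box element. The ileal enterocyte of the suckling rodent is known for very large endocytic and lysosomal vacuoles that digest milk proteins inside the cell, and these are lost around weaning.

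A footprint is the stretch of mRNA that a ribosome protects from nuclease, so a gene's count reflects both the amount of its mRNA and how heavily that mRNA was translated. These cannot be separated without an mRNA library, and in whole tissue fewer cells of a type cannot be told apart from less RNA per cell. Footprints that fell on genes numbered 5558620 (fed) and 5434252 (fasted). All 8 ileal markers, among them Fabp6 (28873 fed and 16615 fasted counts) and the vitamin B12 receptor Cubn (23860 and 40302), were present in both libraries. Ratios were taken after TMM scaling, which sets the typical gene near a ratio of 1. Dividing by total gene counts alone (plain CPM) put every log2 ratio 0.32 lower, and that of the median gene with it.

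Most of the lysosomal genes lay within 1.5-fold between the libraries, and a few members stood apart in each direction. All 43 had reads in both libraries, and 42 reached the 30 counts in sum needed to be measured. Of these 42, 6 were higher in the fasted library, meaning at least 1.5-fold with a 95% interval that excluded 1. They were the proteases Ctsl, Lgmn and Ctsf, the sialidase Neu1, and the sulfatases Ids and Arsa. Another 4 were lower, namely the glycosidases Hexa, Gusb and Naglu and the sulfatase Arsb, and 32 were neither. Across all 11333 measured genes, 17.3% were higher and 17.3% were lower by the same rule. The members' shares were 14.3% higher and 9.52% lower, and 23.8% of members against 34.6% of all genes differed in either direction. How these shares compare with all genes depended on the setting. With plain CPM 4 members were higher (9.52%) and 6 lower (14.3%), where 8.86% and 31.2% of all genes were. With the interval alone 19 were higher (45.2%) and 7 lower (16.7%), against 27.6% and 25.8% of all genes. At 2-fold 3 members were higher and 2 lower, or 7.14% and 4.76%, against 8.25% and 9.13%. Among the genes with at least 200 counts 4 members were higher and 3 lower (12.5% and 9.38%, against 19.3% and 14.5%), and with a stricter interval 5 and 4 (11.9% and 9.52%, against 13.5% and 12.1%). The share of higher members thus lay well above that of all genes only with the interval alone. With plain CPM the shares were close, and in the other settings given here the members' share was lower. Most of these shares rest on few members.

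The median log2 ratio of the measured members was 0.11, beside 0.0028 for all measured genes. With plain CPM both medians were negative, at -0.21 and -0.32. The middle 50% of the members lay between -0.12 and 0.43, and that of all measured genes between -0.44 and 0.44. Of the 42 members, 26 had a ratio above 1 after TMM scaling. Summed over the 43 genes, 38988 fed counts and 33959 fasted counts made up 0.701% (exact Clopper-Pearson 95% interval 0.694% to 0.708%) and 0.625% (0.618% to 0.632%) of all gene counts. The summed TMM-scaled level was 1.11-fold higher in the fasted library, so for the sum, too, the direction turned with the scaling.

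**Figure D1:**
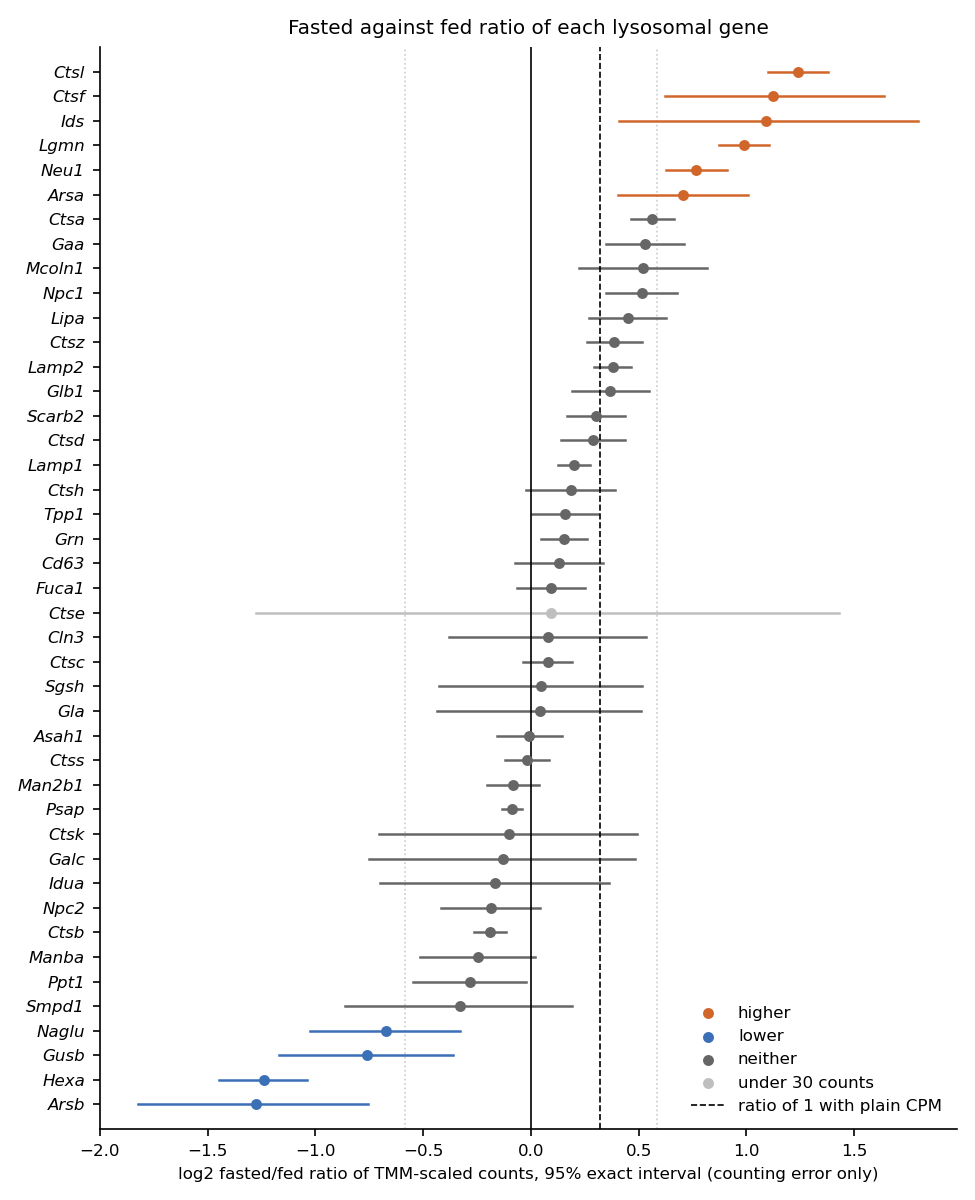
Log2 fasted/fed ratio of TMM-scaled counts for each of the 43 genes (points) with its exact 95% interval (bars, counting error only); dotted lines mark 1.5-fold and the dashed line a ratio of 1 with plain CPM. The 6 higher genes, from Ctsl to Arsa, lie with their whole intervals to the right of the solid and the dashed line, and the 4 lower genes, Naglu, Gusb, Hexa and Arsb, to the left of both.

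Levels differed far more between the genes than between the libraries. Compared per kb of coding sequence in TMM-scaled CPM, Psap, the precursor of the saposins that help hydrolases reach their lipid substrates, came first in both libraries, at 876 fed and 824 fasted. Ctsb, a cysteine protease, came second at 586 and 514, and Lamp1, the main glycoprotein of the lysosomal membrane, next at 389 and 446. The lowest was Ctse, an endosomal aspartic protease, with 12 fed and 10 fasted counts, which was too few to be measured. Ids, Galc, Ctsf, Idua and Smpd1 followed it in the fed library, at 2.91, 4.39, 6.27, 6.34 and 7.01 on the per-length scale. The median measured member stood at the 85.4th percentile of all measured genes by fed level and at the 84.9th by fasted level, and 14 and 15 members were in the top 10%. Psap, Ctsb, Lamp1, Lamp2 and Ctsa together took 49.9% of the members' fed counts and 46.7% of their fasted counts. From fed to fasted, Ctsf went from rank 40 to 31, Ctsl from 14 to 7, Hexa from 19 to 26 and Arsb from 33 to 41, the widest moves among the 43.

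**Figure D2:**
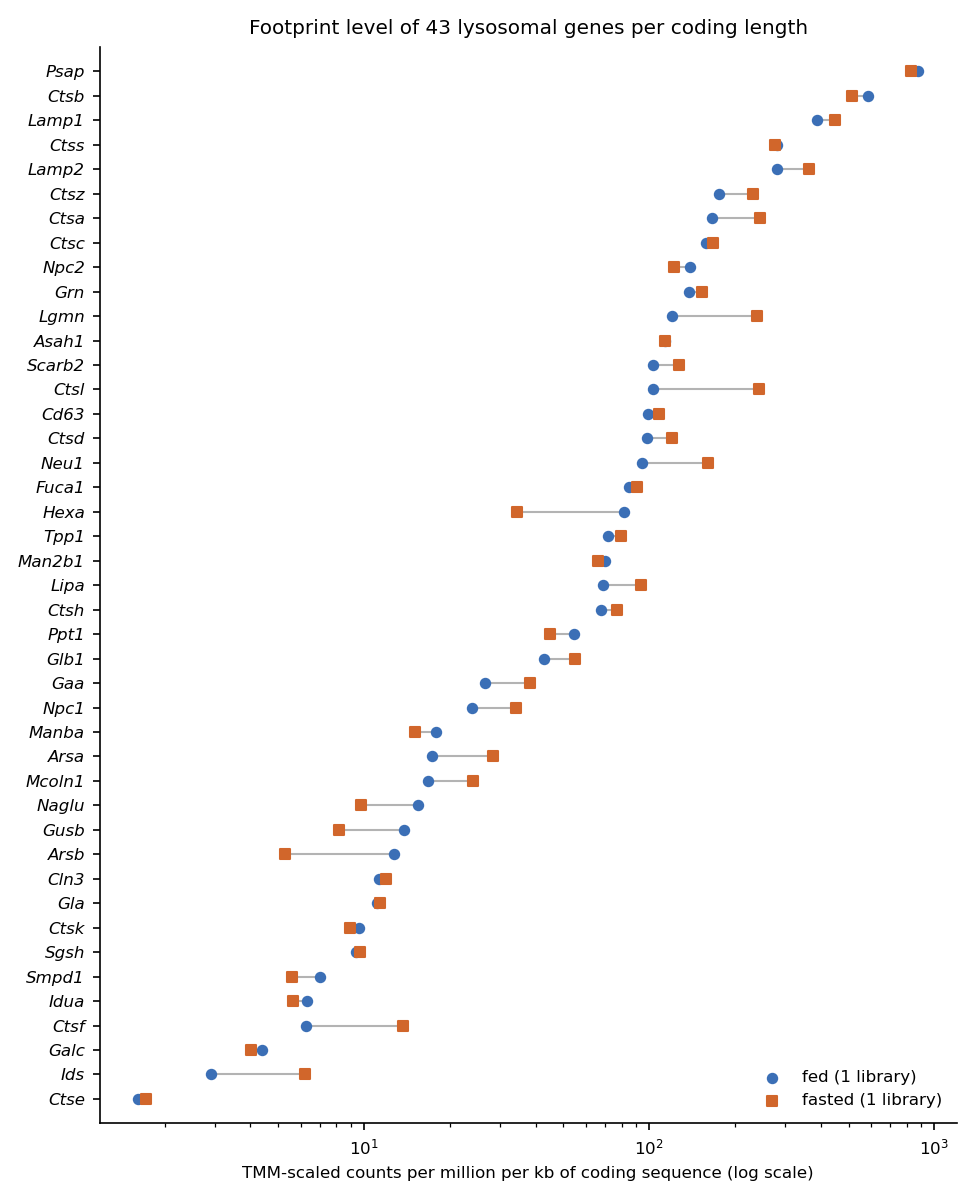
TMM-scaled CPM per kb of coding sequence (log axis) in the fed library (circles) and the fasted library (squares), with genes ordered by fed level. Psap, Ctsb and Lamp1 are the top 3 in both libraries, and the widest gaps between the symbols are those of Arsb, Hexa, Ctsl, Ctsf and Ids.

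The membrane proteins were close together. All 7 had ratios above 1 after TMM scaling and none reached 1.5-fold, with a median log2 ratio of 0.30, which was -0.022 with plain CPM. Lamp1 had 2942 fed and 2642 fasted counts, a log2 ratio of 0.20 (95% interval 0.12 to 0.28) that was -0.12 with plain CPM. Lamp2, whose splice form serves chaperone-mediated autophagy, had 2173 and 2211 counts (0.38, 0.29 to 0.47). The highest were Mcoln1, the calcium channel of the lysosomal membrane, with 182 and 204 counts (0.52, 0.23 to 0.82), and Npc1, which exports cholesterol, with 568 and 634 (0.51, 0.35 to 0.68). Scarb2, the receptor that delivers glucocerebrosidase, had 921 and 887 counts (0.30), and Cln3, the protein lost in juvenile Batten disease, 92 and 76 (0.080). Cd63, a tetraspanin of late endosomes, had 438 and 375 counts (0.13). Its level may be counted too low. Only 25.5% of the 28-base stretches of its coding sequence are unique among annotated transcripts, the rest being shared with the pseudogene Cd63-ps.

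Among the cysteine proteases 3 of 9 were higher in the fasted library and 0 lower, with the same counts under plain CPM. Beside these 33.3% of the list, 17.3% of all measured genes were higher, and with plain CPM 8.86% were higher and 31.2% lower. Ctsl (chromosome 13, 64359337 to 64370890, minus strand, mm10), a broad-acting endopeptidase, had 642 fed and 1185 fasted counts. That was 2.36-fold higher (log2 ratio 1.24, 1.1 to 1.38), the highest ratio of the 43 genes, and 1.89-fold with plain CPM. Lgmn (chromosome 12, 102394084 to 102439813, minus strand), the legumain that cuts after asparagine and matures several cathepsins, had 978 and 1518 counts, 1.99-fold higher (0.99, 0.87 to 1.11) and 1.59-fold with plain CPM. Ctsf had 54 and 92 counts, 2.18-fold higher (1.12, 0.62 to 1.64), a wide interval at this depth.

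The other 6 cysteine cathepsins were neither higher nor lower. Ctsb had 3706 fed and 2542 fasted counts, 0.878-fold (-0.19, -0.26 to -0.12). Ctss, which trims the invariant chain in antigen-presenting cells, had 1785 and 1377 counts (-0.019, -0.12 to 0.083). Ctsc, which activates granule serine proteases, had 1368 and 1128 (0.077), Ctsz, a carboxypeptidase, 1006 and 1028 (0.39), and Ctsh, an aminopeptidase, 420 and 373 (0.18). Ctsk, the collagen-degrading cathepsin of osteoclasts and fibroblasts, had 59 and 43 counts (-0.10, -0.70 to 0.49), so a difference was not detectable at this depth. Fibroblast markers went both ways: of 9, 5 were lower, among them the collagens Col1a1 (-2.95) and Col3a1 (-3.10), and Dcn (0.83) and Pdgfra (0.72) were higher, though not with plain CPM.

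The 3 measured aspartic and serine proteases were all neither higher nor lower, and Ctse, also of this list, had too few counts to be measured. Ctsa, the carboxypeptidase that shields beta-galactosidase and neuraminidase in a complex, had 1518 fed and 1754 fasted counts. Its 1.48-fold ratio (0.56, 0.46 to 0.66) lay just under the 1.5-fold threshold, and Arsa, at 1.63-fold, was the nearest member above it. Ctsd, the main aspartic protease, had 752 and 718 counts (0.29, 0.14 to 0.44). The gene model Gm49369, which overlaps it on the same strand, shares all but 35% of its coding 28-base stretches, so its level may be counted too low if the authors' annotation held that model. Tpp1, a tripeptidyl peptidase, had 750 and 655 counts (0.16).

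The glycosidases, which take sugars from glycoproteins, glycolipids and glycosaminoglycans, had log2 ratios from -1.24 to 0.77. Their median was -0.084, and of 11, 1 was higher and 3 were lower (0 and 3 with plain CPM). Beside these 9.09% and 27.3% of the list, 17.3% of all measured genes were called in each direction. With plain CPM 8.86% of all measured genes were higher and 31.2% lower. Hexa (chromosome 9, 59539540 to 59565109, plus strand), the alpha subunit of beta-hexosaminidase, had 801 fed and 265 fasted counts, which was 2.36-fold lower (-1.24, -1.45 to -1.04). Gusb, beta-glucuronidase, had 167 and 77 counts (-0.76, -1.17 to -0.36), and Naglu, which acts on heparan sulfate, 214 and 105 (-0.67, -1.02 to -0.33). In the other direction Neu1, the lysosomal sialidase, had 719 and 956 counts, 1.70-fold higher (0.77, 0.63 to 0.91), but 1.36-fold and under the threshold with plain CPM. The acid alpha-glucosidase Gaa, which degrades glycogen, had 472 and 533 counts (0.53, 0.35 to 0.71). Glb1, beta-galactosidase, had 515 and 520 (0.37), and Fuca1, alpha-fucosidase, 716 and 597 (0.093). The mannosidases Man2b1 (1322 and 975 counts, -0.084) and Manba (293 and 193, -0.25), the alpha-galactosidase Gla (87 and 70, 0.042) and the iduronidase Idua (76 and 53, -0.16) were also neither.

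The 4 sulfatases split. Ids, which removes sulfate from iduronic acid in heparan and dermatan sulfate, had 30 fed and 50 fasted counts, 2.13-fold higher (1.09, 0.41 to 1.80), and was the least covered gene among those called. Arsa, which desulfates sulfatide, had 164 and 209 counts (0.71, 0.40 to 1.01), and dropped under the threshold with plain CPM at 1.30-fold. Arsb (chromosome 13, 93771630 to 93943016, plus strand), which acts on dermatan and chondroitin sulfate, had 127 and 41 counts. It was 2.42-fold lower (-1.28, -1.82 to -0.76), the lowest ratio of the 43. Sgsh, the heparan N-sulfatase, had 88 and 71 counts (0.046).

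None of the lipid hydrolases and none of the activators passed the threshold after TMM scaling. Lipa, the acid lipase of cholesteryl esters and triglycerides, had 508 fed and 542 fasted counts (0.45, 0.27 to 0.63), and Asah1, acid ceramidase, 838 and 652 (-0.0066). Galc, which splits galactosylceramide, had 56 and 40 counts (-0.13). Ppt1, which removes palmitate from proteins, had 311 and 200 (-0.28, -0.54 to -0.021), and Smpd1, acid sphingomyelinase, 82 and 51 (-0.33, -0.86 to 0.19). With plain CPM these last were both lower, at -0.60 and -0.65. Psap, with 9100 fed and 6694 fasted counts the most counted member, had -0.088 (-0.13 to -0.042). Grn, progranulin, had 1550 and 1348 counts (0.15) and Npc2, the soluble cholesterol carrier that hands over to Npc1, 386 and 265 (-0.19, -0.42 to 0.042).

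**Figure D3:**
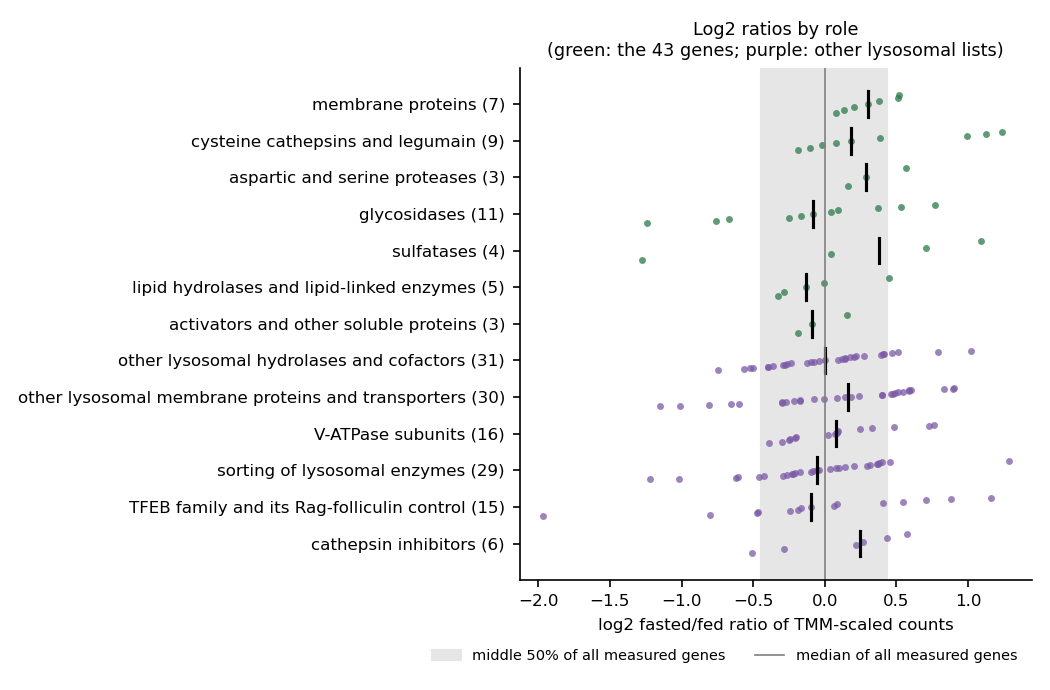
Log2 fasted/fed ratio of TMM-scaled counts of each measured gene (points) by role, with the number of genes in brackets, the median of each list (black bar) and the middle 50% of all measured genes (grey band). The membrane proteins all lie between 0.080 and 0.52, while glycosidases and sulfatases reach below -1.2.

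Ratios of gene pairs within a library do not depend on how libraries are scaled. They were taken for 13 pairs chosen after the values were seen, for shared complexes, substrates or class. For Arsb per Arsa the ratio went from 0.774 to 0.196, which was 3.94-fold lower (exact 95% interval 2.58 to 6.09). Ctsl per Ctsb went from 0.173 to 0.466, 2.69-fold higher (2.41 to 3.004), and Lgmn per Ctsb from 0.264 to 0.597, 2.26-fold higher (2.06 to 2.49). As the pairs were chosen with the ratios of their genes known, an interval away from 1 describes counting error and is no test.

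Other partners lay closer together. In the complex of Ctsa, Glb1 and Neu1, Ctsa per Glb1 was 2.95 fed and 3.37 fasted, with an interval of the change from 0.992 to 1.32 that included 1. Neu1 per Glb1 was 1.32-fold higher in the fasted library (1.12 to 1.54). Lamp1 per Lamp2 was 1.35 and 1.19, a change of 0.883-fold (0.815 to 0.956). Npc1 per Npc2 went from 1.47 to 2.39, 1.63-fold higher (1.33 to 1.98), although neither gene passed the threshold on its own.

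**Figure D4:**
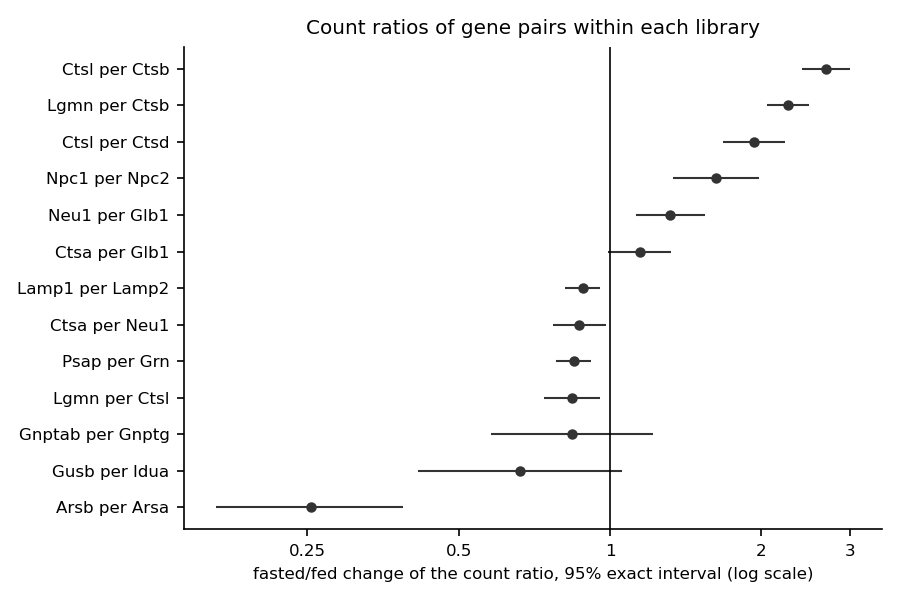
Fasted/fed change of the ratio between the counts of gene pairs (points, log axis) with exact 95% intervals (bars, counting error only) for all 13 pairs. Arsb per Arsa lies lowest, at 0.254, and Ctsl per Ctsb highest, at 2.69.

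The E-box that the TFEB family binds was searched in the promoters of the members. RefSeq promoter windows (GRCm38.p6, 250 bases before to 50 after a start site) were at hand for 38 of the 43 genes, in 42 windows. The motifs were CACGTG and its longer form TCACGTGA, which contains it; both read the same on either strand. CACGTG was in 14 of 42 member windows (33.3%) against 7.15% of all 32851 windows, and TCACGTGA in 5 (11.9%) against 0.974%. The other lysosomal genes listed further on had CACGTG in 21.3% and TCACGTGA in 13.4% of 127 windows. Sites of members from both ends and the middle of the ranking are shown in 30-base stretches on the gene's strand, 5′ to 3′, with the motif in capitals.
Ctsl, chr13:64370739-64370768, minus strand, higher in the fasted library: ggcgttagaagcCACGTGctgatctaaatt
Lgmn, chr12:102439124-102439153, minus strand, higher: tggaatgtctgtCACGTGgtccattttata
Ctsf, chr19:4855074-4855103, plus strand, higher: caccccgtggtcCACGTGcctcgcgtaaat
Naglu, chr11:101070009-101070038, plus strand, lower: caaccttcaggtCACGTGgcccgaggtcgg
Mcoln1, chr8:3500462-3500491, plus strand, neither: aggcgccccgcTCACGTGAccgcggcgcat
Ctsd, chr7:142387908-142387937, minus strand, neither: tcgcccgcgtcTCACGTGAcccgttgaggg
Cln3, chr7:126583340-126583369, minus strand, neither: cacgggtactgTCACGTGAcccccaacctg

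The motif starts 236 bases before the RefSeq start site in Ctsl, 49 in Lgmn, 79 in Ctsf and 73 in Naglu. Lamp1 has 4 such sites, 15 to 61 bases before its RefSeq start site. Start sites differ between annotations. In GENCODE, from which the gene coordinates come, the gene spans of Ctsl, Lgmn, Naglu, Mcoln1, Ctsd and Cln3 begin further upstream. The motifs printed for these genes thus lie inside the spans, and of those printed only that of Ctsf lies before its span. Of the 14 measured members with CACGTG, 4 were higher and 1 was lower in the fasted library, at a median log2 ratio of 0.44. Of the 24 with a window but without it, 2 were higher and 3 lower, at a median of -0.051. Across all measured genes 17.3% were called in each direction, and both groups are small. Plain CPM put every log2 ratio 0.32 lower. Arsa, with the motif, and Neu1, without it, were then no longer called, and Ppt1 and Smpd1, both without it, became lower. The 5 members with the longer TCACGTGA (Cln3, Ctsa, Ctsd, Gla and Mcoln1) were all neither, with log2 ratios from 0.044 to 0.56. Arsb, Gusb and Hexa, all lower, and Ids and Neu1, both higher, had windows without CACGTG. A match is a description of letters, not evidence of binding, and no test was made.

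The rest of the lysosomal system was described with 6 lists of 146 genes, of which 127 were measured. There 13 genes were higher and 10 lower in the fasted library, which was 10.2% and 7.87% against 17.3% in each direction among all genes, at a median log2 ratio of 0.067. With the interval alone the shares were 30.7% and 22.8%, against 27.6% and 25.8%. Plain CPM gave 3 higher and 33 lower genes (2.36% and 26.0%, against 8.86% and 31.2% of all genes). The median was then -0.26, beside -0.32 for all measured genes. Other hydrolases and cofactors had 2 of 31 higher and 1 lower (6.45% and 3.23%), and 1 and 10 with plain CPM. The lower gene was Smpdl3a, a phosphodiesterase related to sphingomyelinase, with 1150 and 535 counts (-0.75, -0.90 to -0.60).

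Other lysosomal membrane proteins had 5 of 30 higher and 4 lower (16.7% and 13.3%, against 17.3% each way of all genes). With plain CPM 0 were higher and 8 lower, where 8.86% and 31.2% of all genes were. Higher were the ion channels Tpcn1 (258 fed and 375 fasted counts, 0.89) and Tmem175 (67 and 98, 0.90) and the phosphoinositide phosphatase Tmem55b (116 and 161, 0.83). Lower were the peptide and histidine transporter Slc15a4 (126 and 49, -1.01), the Mcoln1 relative Mcoln2 (185 and 92, -0.65) and the transporter Abca2 (92 and 41, -0.81). Of 16 measured subunits of the V-ATPase, the proton pump that acidifies the lysosome, 2 were higher (12.5%) and 0 lower, and 0 and 2 with plain CPM. The higher ones were Atp6v1b2 (759 and 980 counts, 0.72) and Atp6v1g1 (62 and 82, 0.76), and the median was 0.076.

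Genes that sort enzymes to the lysosome had 1 of 29 higher and 3 lower (3.45% and 10.3%, against 17.3% each way of all genes). With plain CPM 1 was higher and 7 were lower, where 8.86% and 31.2% of all genes were. The tethering subunit Vps11 had 266 fed and 506 fasted counts (1.28, 1.07 to 1.5). The sorting receptors Sort1 (1463 and 566 counts, -1.01, -1.16 to -0.87) and Sorl1 (1159 and 595, -0.61) and the adaptor Gga2 (119 and 40, -1.22) were lower. The mannose 6-phosphate receptors, chosen after their values were seen, were neither, M6pr at -0.041 (204 and 155 counts) and Igf2r at -0.079 (2375 and 1757). The list of the TFEB family and its control by Rag GTPases and folliculin had 3 of 15 higher and 2 lower. These were 20% and 13.3%, and with plain CPM 1 was higher and 4 were lower. Flcn, folliculin, had 77 and 111 counts (0.88), its partner Fnip2 28 and 49 (1.16), and Tfe3 76 and 97 (0.71, 0.26 to 1.16). Lower were Lamtor3, which anchors Rag GTPases (25 and 5, -1.97), and the calcineurin subunit Ppp3cb (194 and 87, -0.80). Tfeb itself, also chosen after its value was seen, had 151 and 125 counts (0.083, -0.27 to 0.43). Of 6 measured cathepsin inhibitors none was called after TMM scaling and 2 were lower with plain CPM. Cst3, cystatin C, chosen after its value was seen, had 1092 and 1272 counts (0.58, 0.46 to 0.69).

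Several cell type marker lists differed between the libraries by more than the lysosomal genes in sum. Summed over 13 absorptive enterocyte markers, the TMM-scaled level was 2.11-fold higher in the fasted library, with 8 of 13 higher and 0 lower. Among all measured genes 17.3% were called in each direction. Markers of the endocytic enterocyte of the suckling period, which shares Cubn and Amn with the ileal list, gave 2.12-fold, with 4 of 7 measured genes higher and 0 lower. Cubn alone had 40302 fasted counts, and Mcoln3 had 2 fed and 0 fasted counts. The sum of 9 smooth muscle markers was 0.536-fold, with 0 higher and 6 lower. For the 9 fibroblast markers it was 0.429-fold; 2 of them were higher and 5 lower, plain CPM giving 0 and 6, and Col1a1, Col3a1 and Col1a2 made up most of their fed counts. Beside these the 43 lysosomal genes gave 1.11-fold. Macrophages are rich in lysosomes, and their 15 markers summed to 701 fed and 814 fasted TMM-scaled CPM, 1.16-fold, with none at 0; with plain CPM the sums were 784 and 728. Of 14 measured macrophage genes 2 were higher and 3 lower, and the most counted included Csf1r (863 fed and 706 fasted counts, 0.066) and Lyz2 (593 and 362, -0.36). B and plasma cell markers had 7 of 8 lower, at a sum of 0.525-fold. The part of these shifts in the ratios of single lysosomal genes was not tested.

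**Figure D5:**
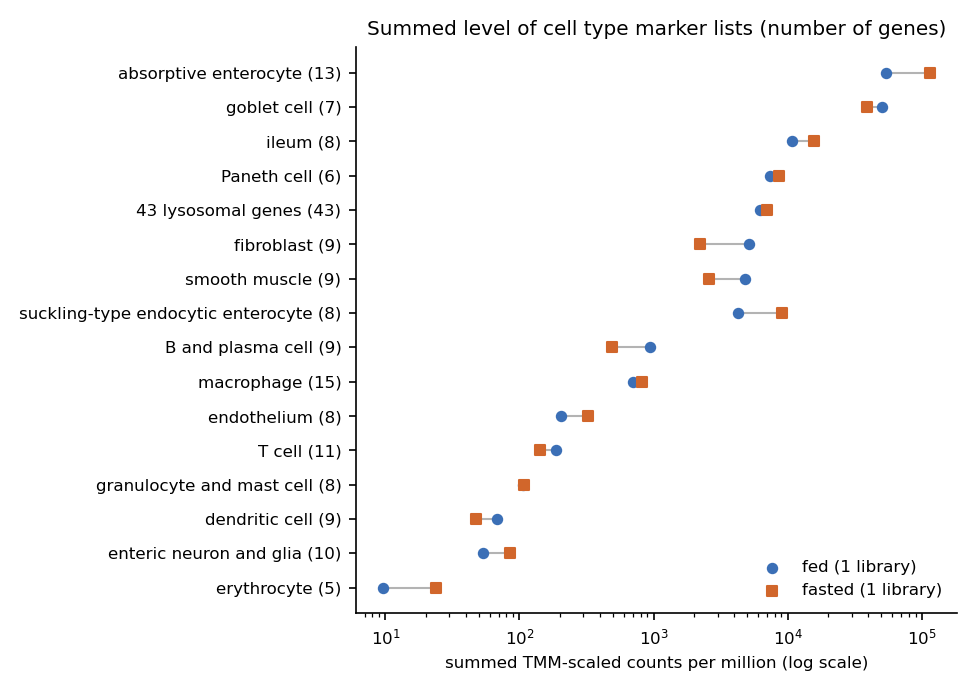
Summed TMM-scaled CPM (log axis) of each cell type marker list and of the 43 lysosomal genes in the fed library (circles) and the fasted library (squares), with the number of genes in the files in brackets. The enterocyte lists lie about 2.1-fold higher in the fasted library and the fibroblast list 0.429-fold, while the lysosomal genes and the macrophage list move by under 1.2-fold. Most counts of the suckling-type enterocyte list are those of Cubn.

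The 43 genes lie on 18 chromosomes. For 36 of them every 28-base stretch of the coding sequence is unique among annotated transcripts, for 5 at least 95% of the stretches are, and the remaining ones are Cd63 and Ctsd, given above. Exons of 17 members overlap an exon of another annotated gene, in 15 cases one on the opposite strand. Among the called members these are Arsa, Arsb, Ctsl and Hexa. Whether the counting used strand is unknown here. It is thus also unknown whether reads in these overlaps were kept for the member or set aside as ambiguous between genes. Ambiguous reads were 0.209% of the fed and 0.196% of the fasted reads counted.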

How the data were processed

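The authors deposited raw read counts per gene symbol for 1 fed and 1 fasted ileal ribosome footprint library, not normalised. The submitters' processing notes name the build mm10 and HTSeq, STAR, cutadapt and Bowtie 1.1.2, with no roles; the annotation used for counting, its strand setting and any length filter are unknown here. Values of NA were read as 0 (no member is NA). Rows of reads assigned to no gene stayed out of library sizes; reads aligned to several places were 41.4% of the fed and 39.9% of the fasted reads counted, and reads in no counted feature 13.4% and 21.0%.

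With 1 library per group no test and no p-value is possible. TMM factors came from edgeR 4.0.16 (R 4.3.3), used for scaling only. Each fasted/fed ratio has an exact Clopper-Pearson 95% interval on the split of its counts, and pair ratios have exact conditional intervals (scipy 1.17.1). PCR reads are not independent molecules, so intervals cover counting error only. List medians use log2 ratios with 0.5 counts added. Measured means at least 30 counts in sum; a gene was called at 1.5-fold or more where the interval excluded 1. For a gene at 0, up to 3 counts are allowed, or 0.54 (fed) and 0.552 (fasted) CPM. The functions were tested on simulated libraries. Coordinates (1-based) and the longest coding length come from GENCODE vM21 (GRCm38, the assembly of mm10). Protein sequences were not analysed here.

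Members and lists were chosen with earlier results of these data known. All members are named; the other lysosomal lists name up to 3 called genes per direction by the interval bound nearest to 1, and the tissue and cell type lists only some of their most counted genes; a few genes of these rules are not reported here. Alternatives were plain CPM, DESeq2 1.42.0 size factors, upper-quartile factors, TMM without ribosomal protein, mitochondrial and the 20 most abundant genes, other count minimums, folds and intervals, 2 added counts, means, and other denominators of the share.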

Additional observations from a re-analysis of the deposited data

How the results depend on the processing

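No member reversed its direction after being called, under plain CPM, DESeq2 size factors, upper-quartile factors, TMM without abundant genes or 2 added counts. This was fixed beforehand and is no sign of stability. A call at 1.5-fold needs a larger log2 ratio than the 0.32 by which plain CPM, the largest shift, moved the genes. Adding 2 counts cannot reverse a called gene with at least 30 counts either. Plain CPM lowered every log2 ratio by the same 0.32, which took 30 of 43 members out of their own intervals. Which members left was set by the width of the interval, and so by their counts. The other 4 settings moved none. With plain CPM Neu1 and Arsa left the higher members and Ppt1 and Smpd1 joined the lower ones. At 2-fold, 3 members were higher and 2 lower (8.25% and 9.13% of all genes); without a fold threshold 19 were higher and 7 lower (27.6% and 25.8%). Of the other lysosomal lists, 3 genes were higher and 33 lower with plain CPM (2.36% and 26.0%, against 8.86% and 31.2% of all genes). With a minimum of 200 counts and fewer genes tested there were 8 and 5 (8.51% and 5.32%, against 19.3% and 14.5%). At 2-fold there were 3 and 5 (2.36% and 3.94%, against 8.25% and 9.13%). Without a fold threshold there were 39 and 29 (30.7% and 22.8%, against 27.6% and 25.8%). The members' share of counts was 0.84% fed and 0.781% fasted without the 20 most abundant genes, and 0.541% and 0.406% with reads in no counted feature added to the total. With the stricter interval Ids was no longer called. No paired analysis was possible because each group has 1 library. Depth limits Ctse, Ids, Galc and Ctsk most, and the leave-one-out alternative does not exist at n = 1.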
